A study of Mus musculus with 63 samples.

Results

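The libraries described here are those of PDGFR-β+ stromal cells, the fibroblasts and pericytes of the kidney, sorted 2 days (UUO-2, 4 libraries) and 7 days (UUO-7, 3 libraries) after unilateral ureteric obstruction. They are 7 of the 63 small RNA libraries of the series and were taken by their labels alone, without any measured value. All 2110 loci of mature miRNAs in the count table were members, of which 1038 had a count in the 7 libraries and 477 had enough counts to be tested. The mice were male C57BL/6 animals of 8 to 12 weeks whose ureter was tied near the bladder, with a silastic tube around its proximal end to limit dilatation. Of 5 mice operated in each group, the study sequenced the 4 whose Havcr1 expression lay closest to the mean, so that the spread between libraries is that of mice chosen to be alike, and it removed 1 UUO-7 library of PDGFR-β+ cells as an outlier of a principal component analysis. Live cells negative for CD45 and CD31 and positive for PDGFR-β were sorted from digested kidney, and the same mice gave endothelial cells (ECs), F4/80hi macrophages (Macs) and proximal tubular (PT) cells. Sham-operated mice and mice whose ureter was implanted again into the bladder after 7 days and who were kept for a further 14 days (R-UUO), 4 libraries each, entered the fit and are given as reference levels. Each library is a separate mouse, and a replicate number shared by UUO-2 and UUO-7 does not mark the same animal.

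Mature miRNAs are short RNAs cut from a hairpin, and each arm of the hairpin can enter an Argonaute protein and repress mRNAs. Bases 2 to 8 from the 5′ end, the seed, pair with the target, so that miRNAs with the same seed are grouped as a family. After obstruction, PDGFR-β+ cells of the kidney expand and turn into matrix-producing myofibroblasts, and miR-21 and the miR-29, miR-143/miR-145 and miR-199/miR-214 families are among the miRNAs most often linked to fibroblasts, smooth muscle and fibrosis.

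The mature sequences of the miRNAs on which the results turn are given from RefSeq (GRCm38.p6), 5′ to 3′, with the seed in capitals. RefSeq gave a mature sequence for 429 of the 477 loci tested. The first set comes from the imprinted Dlk1-Dio3 region of chromosome 12 and holds 6 of the loci with the largest increase. No 2 of these 6 share a seed.
miR-127-3p: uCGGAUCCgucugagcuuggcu
miR-431-5p: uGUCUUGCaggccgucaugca
miR-411-5p: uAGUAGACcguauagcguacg
miR-410-3p: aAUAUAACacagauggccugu
miR-300-3p: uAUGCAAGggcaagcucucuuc
miR-381-3p: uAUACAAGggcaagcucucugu
The next set rose as well and holds the 3p arms of the miR-199 and miR-214 hairpins, miR-21a and the miR-146 pair. miR-199a-3p and miR-199b-3p have the same mature sequence, and miR-146a-5p and miR-146b-5p share their seed.
miR-199a-3p: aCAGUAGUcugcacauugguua
miR-199b-3p: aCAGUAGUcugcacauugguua
miR-214-3p: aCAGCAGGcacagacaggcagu
miR-21a-5p: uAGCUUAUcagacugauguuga
miR-146a-5p: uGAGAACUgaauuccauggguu
miR-146b-5p: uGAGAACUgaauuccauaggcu
The third set holds miR-338-3p, miR-29c-3p and the miR-10 pair, which fell, and miR-29a-3p, which has the seed of miR-29c-3p and was not called.
miR-338-3p: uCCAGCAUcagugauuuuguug
miR-29a-3p: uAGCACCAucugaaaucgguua
miR-29c-3p: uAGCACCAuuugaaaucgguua
miR-10a-5p: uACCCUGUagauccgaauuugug
miR-10b-5p: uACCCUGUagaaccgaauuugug
The last set shows the seeds found with members called in both directions, among miRNAs with a RefSeq sequence. The X-linked miR-322-5p has the seed of miR-15/16, and the X-linked miR-351-5p has the seed of miR-125.
miR-322-5p: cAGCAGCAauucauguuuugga
miR-15a-5p: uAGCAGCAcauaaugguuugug
miR-15b-5p: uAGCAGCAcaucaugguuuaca
miR-16-5p: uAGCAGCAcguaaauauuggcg
miR-351-5p: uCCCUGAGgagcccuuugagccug
miR-125b-5p: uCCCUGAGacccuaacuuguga

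The total count per library was 3279418 to 6701056 at UUO-2 and 1905053 to 4346685 at UUO-7, so that 3 counts stand for 0.492 to 1.16 CPM, the counts scaled to a common total of 1e+06 per library. At UUO-2, 80.0 to 83.6% of all counts fell on the leading 10 loci, and at UUO-7 68.9 to 71.6%. The TMM factors, which scale the libraries so that most loci keep their level, were 0.80 to 0.91 at UUO-2 and 1.23 to 1.36 at UUO-7, and all CPM below are scaled by them. With library size only, the median log2 fold change of all loci tested, 0.38 with TMM, was 0.55 higher, and each change below is to be read relative to that shift. The Pearson correlation of log2 CPM across loci, which are not independent replicates, was 0.960 to 0.980 between UUO-2 libraries, 0.970 to 0.981 between UUO-7 libraries and 0.880 to 0.944 between the groups.

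Of the PDGFR-β+ markers, miR-199a-3p of chromosome 1 was at 3446 ± 779 CPM in PDGFR-β+ libraries at UUO-2 and at 190 ± 74.9 CPM in ECs (SD, n = 4 each, scaled together). The marker list of miR-199a, miR-199b, miR-214, miR-143 and miR-145a had 12 tested loci. At UUO-7, 8 were called higher and 4 lower, against 23.5% and 10.3% of all loci. The list summed to 176459 to 330676 CPM at UUO-2 and 108266 to 137175 CPM at UUO-7. miR-126, which is made from the endothelial gene Egfl7, was present in the PDGFR-β+ libraries at a low level. Its arm miR-126a-5p was at 1.71% of the EC level at UUO-2 and at 0.547% at UUO-7, and miR-126a-3p at 2.60% and 0.682%. The 4 EC marker loci are miR-126a-5p and miR-126a-3p with the overlapping miR-126b arms of nearly the same counts. All 4 were called lower at UUO-7, against 10.3% of all loci, although the miR-126a-5p pair was not called with library size only (log2 -0.75, adjusted p = 0.0562). Their summed level was 2566 to 6096 CPM at UUO-2 and 991 to 2293 CPM at UUO-7. UUO-2 replicate 1 had the highest sum of the EC markers and of the PT and epithelial markers. The leukocyte markers summed to 266 to 324 CPM at UUO-2 and 253 to 619 CPM at UUO-7, and 0 of their 7 tested loci were called by edgeR's quasi-likelihood test or by DESeq2 in the higher direction, where 0 had an unadjusted p under 0.05. In the lower direction 0 of these 7 were called by edgeR, 1 was called by DESeq2 and 2 had an unadjusted p under 0.05. miR-142a-5p of leukocytes stood at 1.02% of the Mac level at UUO-2 and 1.72% at UUO-7, and miR-223-3p of myeloid cells at 1.30% and 5.01%. Both were highest in UUO-7 replicate 5, where miR-223-3p was at 117 CPM against 21.0 and 28.4 CPM in the other UUO-7 libraries. Of the 7 leukocyte loci 4 had a log2 fold change above 0. The arms of miR-511 went the other way (miR-511-5p log2 -2.12, miR-511-3p log2 -2.66) and were not called. Of 11 tested PT and epithelial loci 1 was called lower, against 10.3% of all loci, namely miR-192-5p (log2 fold change -0.70, adjusted p = 0.0492). Of the 4 tested erythroid loci, all of miR-486, 0 were called by edgeR or DESeq2, with 0 at an unadjusted p under 0.05. In bulk samples of sorted cells, fewer cells of a type and less RNA per cell cannot be told apart.

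At UUO-7, more miRNA loci rose than fell. A locus was called when its false discovery rate in edgeR's quasi-likelihood test was under 0.05 and its fold change over 1.5. Of 477 loci, 112 rose (23.5%) and 49 fell (10.3%), 33.8% in all. The split depended on the scaling. Of all calls 69.6% were higher with TMM, 89.7% with library size only (21 loci lower) and 58.9% with RLE size factors (96 higher, 67 lower). Every UUO-7 library lay above every UUO-2 library at 157 loci (32.9%) and below at 82 (17.2%), among them 110 of the 112 and 48 of the 49 calls. Of the 112 higher calls, 39 lay in the Dlk1-Dio3 list, which runs from miR-673-5p to miR-410-3p, and 73 outside it, whereas all 49 lower calls lay outside it. The 73 include the 2 arms of miR-1247, which lies farther along the chromosome, in Dio3os.

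**Figure D1:**
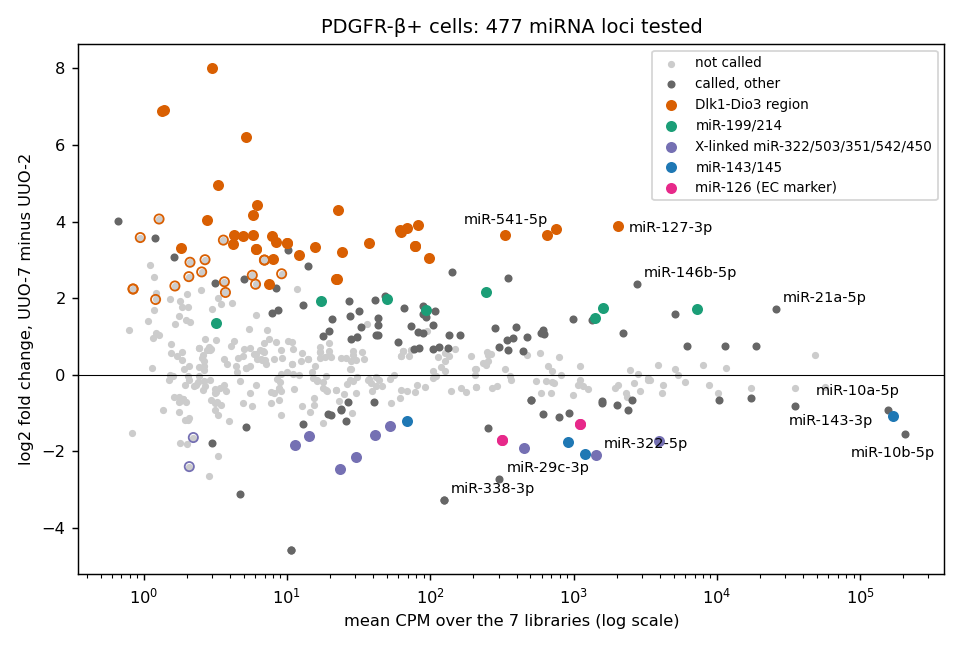
Log2 fold change of UUO-7 over UUO-2 (y axis) against the mean CPM over the 7 libraries (x axis, log scale) for the 477 loci tested in PDGFR-β+ cells. Filled points of a named list were called and open ones were not; the Dlk1-Dio3 loci (orange) lie above 0 at all levels, and the most abundant loci, miR-10b-5p, miR-143-3p and miR-10a-5p, lie below 0.

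The largest increase was shared by miRNAs of the imprinted Dlk1-Dio3 region, a long cluster that is transcribed from the maternal chromosome together with the noncoding RNAs Meg3, Rian and Mirg and is known for its high activity in the embryo. Of its 116 loci, 57 were tested, and 39 of these rose, against 23.5% of all loci. The filter on low counts asks for about 2.35 CPM in at least 3 libraries of any condition. In the UUO-2 libraries alone 16 of the 57 met it, and all 16 rose, with a median log2 fold change of 3.66. Of all loci that met it there, 82 of 347 rose (23.6%). The other 41 loci needed reads in libraries of other conditions to be tested, which favours a high UUO-7 level, so the median of 3.42 over the 57 is a description only. The summed level of all 116 loci, tested or not, was 572, 924, 550 and 956 CPM in UUO-2 replicates 1 to 4. It was 10599, 5360 and 13609 CPM in UUO-7 replicates 2, 4 and 5. Even the lowest UUO-7 library was thus above every UUO-2 library. In sham the sum was 292 to 978 CPM, so the UUO-2 values lay in the range of uninjured cells.

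miR-127-3p (chr12:109592888-109592909, plus strand), the most abundant of the cluster, was at 196.3, 409, 264 and 318 CPM at UUO-2 and at 4819, 2490 and 5762 CPM at UUO-7. The groups were far apart, with a log2 fold change of 3.88 (SE 0.78, 14.7-fold, adjusted p = 0.00121). miR-127 lies antisense to the retrotransposon-derived gene Rtl1. miR-431-5p (chr12:109590459-109590479) rose from 2.56 ± 1.48 CPM (SD, n = 4) to 49.6 ± 23.0 CPM (SD, n = 3), the largest fold among called loci with a mean of at least 10 CPM (log2 4.29, adjusted p = 0.00113). miR-411-5p went up from 116 ± 41.6 CPM to 1609 ± 711 CPM, a log2 fold change of 3.79 (adjusted p = 0.00255). For miR-541-5p, in an intron of Mirg, the means were 109 ± 57.0 CPM and 1376 ± 733 CPM, a log2 fold change of 3.66 (adjusted p = 0.00782). UUO-7 replicate 4 was the lowest of its group at each of these 4 loci.

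Calls lay in both dense groups of the cluster. Of the 14 tested loci between miR-3544-3p and miR-3071/miR-136 13 were called, and of the 39 tested loci from miR-379-5p to miR-410-3p 22 were. These counts include loci that met the filter only through libraries of other conditions, so they too are a description only. miR-434-5p (log2 3.91), miR-410-3p (3.84), miR-300-3p (3.77), miR-381-3p (3.72), miR-434-3p (3.66) and miR-540-3p (3.44) had changes close to that of miR-127-3p. Most of the loci were low, since 48 of the 57 had a mean under 10 CPM at UUO-2. The 3 loci miR-382-5p, miR-376a-5p and miR-154-5p had no count in any UUO-2 library and were tested only through reads of other conditions, so no fold is given for them. The number of calls depended on single libraries. It was 22 without UUO-7 replicate 5, the highest library, 26 without UUO-2 replicate 1 or 3, 27 without UUO-2 replicate 2, 29 without UUO-7 replicate 2, and 35 and 37 without UUO-2 replicate 4 and UUO-7 replicate 4. It was 45 of 46 when only the UUO-2 and UUO-7 libraries were fitted. miR-540-3p lost its call in 7 of the 20 alternatives.

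**Figure D2:**
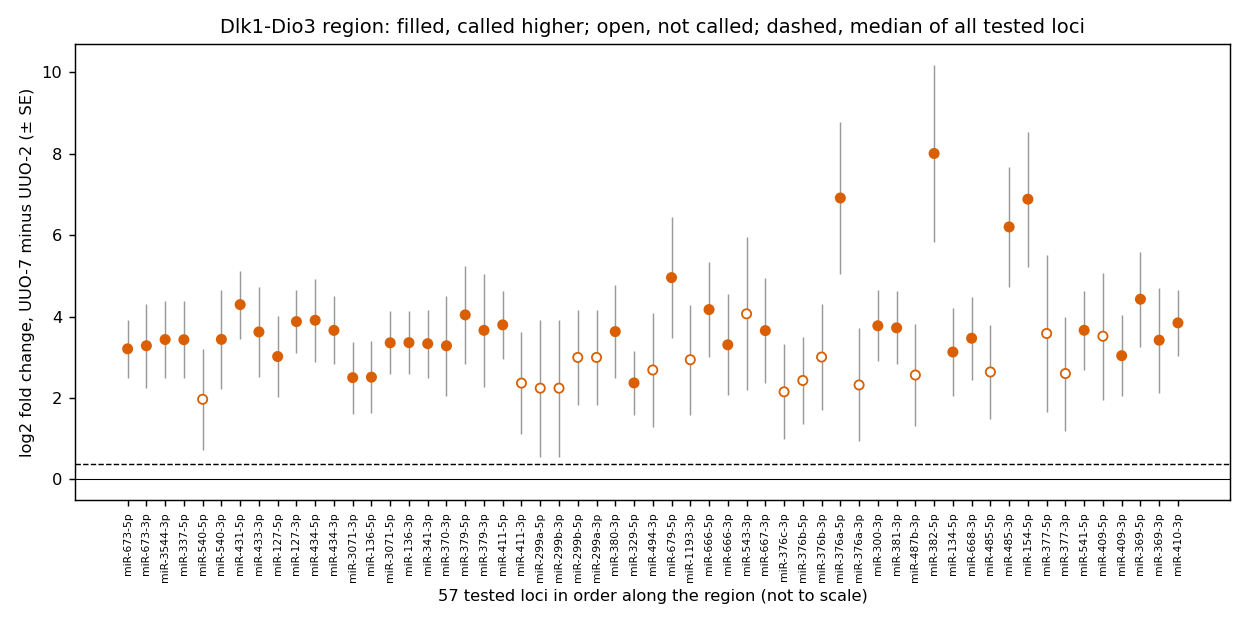
Log2 fold change of UUO-7 over UUO-2 with its SE (y axis) for the 57 tested loci of the Dlk1-Dio3 region, in order along the chromosome (x axis, not to scale). All points lie above the dashed line, the median of all 477 loci (0.38), and the 39 filled points were called higher. The highest points have no or few counts at UUO-2, so their height is not an exact fold.

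In R-UUO the sum of the Dlk1-Dio3 loci was 8966 CPM in replicate 1 and 400 to 988 CPM in the other 3 libraries. miR-127-3p followed this split, with 3856 CPM in replicate 1 and 202 to 507 CPM in the others. A single mouse of the reversal group was therefore as high as the UUO-7 mice, while the other 3 lay near the sham range.

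The fibroblast cluster miR-199/miR-214 rose as a whole. All 8 loci of its list were called higher, against 23.5% of all loci, with a median log2 fold change of 1.72. Some of them share a mature sequence, such as the copies of miR-199a-3p and miR-199b-3p, so they are not 8 separate observations. miR-214 and the miR-199a of chromosome 1 are cut from exons of Dnm3os, a noncoding RNA antisense to Dnm3, whereas another copy of miR-199a lies on chromosome 9 and miR-199b on chromosome 2. miR-214-3p (chr1:162223438-162223459) was at 96.5, 106, 104 and 86.4 CPM at UUO-2 and at 407, 509 and 411 CPM at UUO-7. Within each group the mice were close and between the groups the level differed 4.50-fold (log2 2.17, SE 0.15, adjusted p = 1.73e-07). miR-199a-3p of chromosome 1 (chr1:162217883-162217904) was at 2865, 4271, 4760 and 2851 CPM and then at 11468, 13443 and 11331 CPM (log2 1.71, adjusted p = 5.36e-06). Its other arm, miR-199a-5p, stood at 800 ± 77.0 CPM and then at 2239 ± 248 CPM (log2 1.49, adjusted p = 1.22e-06). miR-199a-5p of chromosome 9, at 1.92 CPM at UUO-2 and 4.87 CPM at UUO-7, rested on few reads and lost its call in 11 of the 20 alternatives (log2 1.36, adjusted p = 0.046).

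miR-21a, induced in injured tissue and linked to fibrosis, rose further after day 2. miR-21a-5p (chr11:86584120-86584141, minus strand, in an exon of Vmp1) was at 13701, 13935, 7553 and 17236 CPM at UUO-2 and at 37934, 45727 and 44864 CPM at UUO-7. The groups did not overlap (log2 1.71, SE 0.23, 3.27-fold, adjusted p = 3.98e-05), and sham stood at 1366 ± 324 CPM (SD, n = 4). Its passenger arm miR-21a-3p was called as well (log2 1.22, adjusted p = 0.0218), a call lost in 3 alternatives that leave out 1 library, namely UUO-2 replicate 3, UUO-7 replicate 4 or UUO-7 replicate 5.

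Of 5 tested loci of miR-146, miR-155 and miR-147, which are induced by inflammatory signalling, 4 rose, against 23.5% of all loci. miR-146b-5p (chr19:46342790-46342811, in an intron of Mfsd13a) was at 864, 1172, 789 and 1148 CPM at UUO-2 and at 5348, 3358 and 6628 CPM at UUO-7. All UUO-7 mice were well above the UUO-2 mice (log2 2.36, 5.15-fold, adjusted p = 1.78e-06). miR-146a-5p, of the same seed, rose by less, with means of 270 ± 33.5 CPM and 523 ± 31.0 CPM (log2 0.96, adjusted p = 0.00212). miR-155-5p, cut from Mir155hg, had a mean of 32.6 ± 14.5 CPM and then of 109 ± 25.5 CPM (log2 1.75, adjusted p = 0.00533). The fourth call, miR-146b-3p, rested on under 2 CPM in every UUO-2 and UUO-7 library and was lost with DESeq2, with the replicate block and without UUO-7 replicate 2 or 4. The leukocyte markers summed to 253, 298 and 619 CPM in UUO-7 replicates 2, 4 and 5, and replicate 5, the highest, was also the highest for miR-146b-5p and miR-155-5p. Their fitted changes were not called (miR-223-3p log2 1.32, adjusted p = 0.234), and their part in the result was not tested.

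Further families are given beside the 23.5% of all loci that rose. In miR-99/miR-100/miR-125, 7 of 12 tested loci were called higher, and the passenger arm miR-125b-1-3p changed most, from 102, 142, 72.5 and 141 CPM to 518, 726 and 743 CPM (log2 2.53, adjusted p = 5.27e-06). In miR-181, 7 of 10 rose, among them the abundant miR-181a-5p of chromosome 2 (14695 ± 2679 to 24508 ± 4195 CPM, log2 0.74, adjusted p = 0.00164). In miR-132/miR-212 there were 3 calls among 4 loci, of which that of miR-132-3p was lost in 9 of the 20 alternatives, 6 of them fits without 1 library, and without UUO-7 replicate 4 the list had 1 call. In miR-221/miR-222 there were 2 calls among 4, of which that of miR-221-3p was lost with DESeq2, RLE and the replicate block (1 call each), with miR-222-3p going from 425 ± 58.5 to 891 ± 25.8 CPM (log2 1.07, adjusted p = 0.000552). In miR-183/miR-96/miR-182 2 of 3 were called, and 0 without UUO-7 replicate 2 or 5. In the let-7/miR-98 family 3 of 24 tested loci rose, and this share was not tested against that of all loci. DESeq2 called 1 higher and 4 lower. The groups did not overlap at 4 loci that were higher and 9 that were lower, against 32.9% and 17.2% of all loci. The median log2 fold change was -0.26, which turned to 0.29 with library size only. The calls of let-7j and miR-98-5p were lost in 6 and 3 alternatives, whereas let-7i-5p rose from 8827 ± 611 to 14840 ± 790 CPM (log2 0.75, adjusted p = 0.000242).

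**Figure D3:**
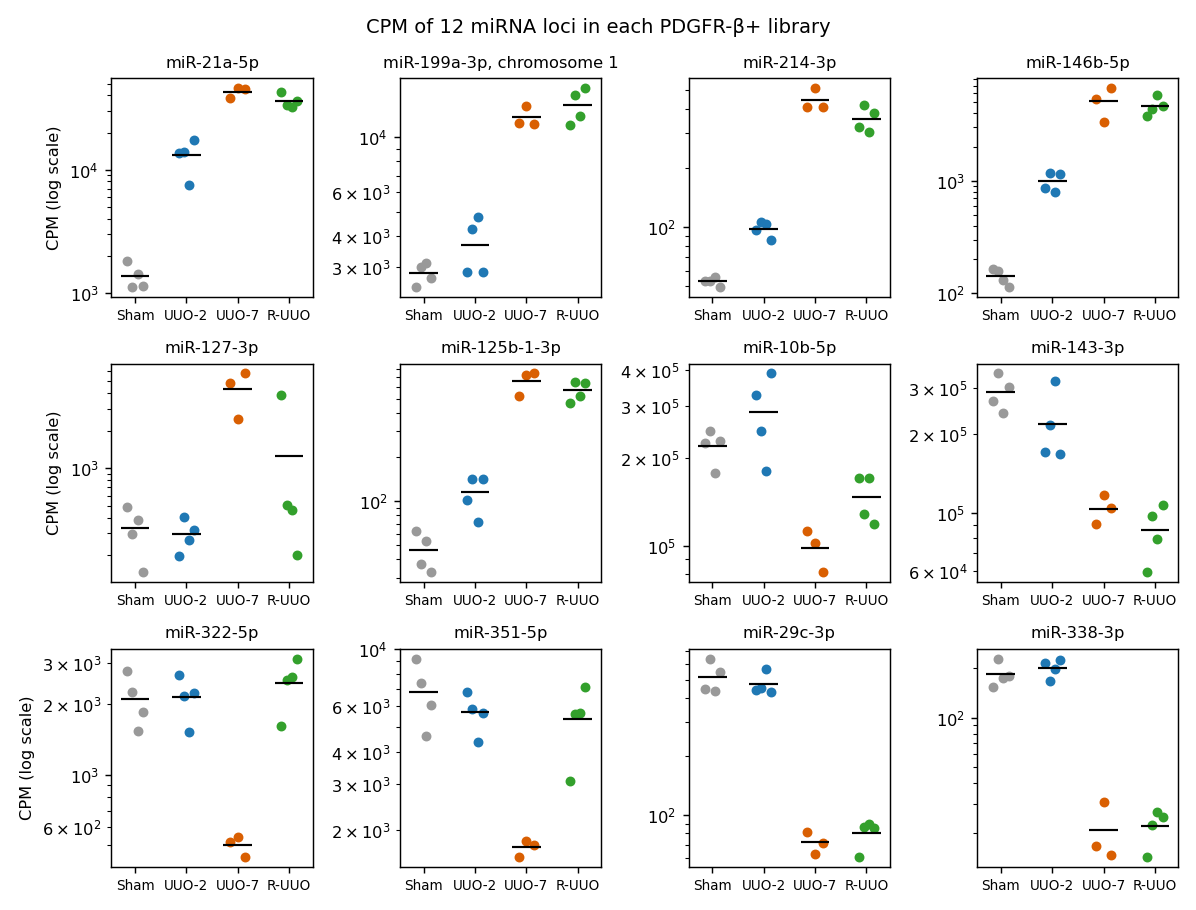
CPM of 12 loci (y axis, log scale) in each library of PDGFR-β+ cells by condition (x axis: Sham, UUO-2, UUO-7, R-UUO); points are mice and lines are means. The 3 UUO-7 points lie above the 4 UUO-2 points for the loci that rose and below them for the loci that fell.

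miR-338, of an intron of Aatk, fell most. miR-338-3p (chr11:120014781-120014802, minus strand) was at 216, 168, 197 and 224 CPM at UUO-2 and at 16.7, 30.8 and 14.7 CPM at UUO-7. The level was 9.64-fold lower (log2 -3.27, SE 0.30, adjusted p = 1.22e-06), after 184 ± 31.6 CPM in sham. miR-338-5p fell from 18.1 ± 6.88 to 0.772 ± 0.490 CPM (log2 -4.57, adjusted p = 2.25e-05). The locus miR-3065-5p on the opposite strand overlaps miR-338-3p and held the same counts, so that it is no separate observation. In R-UUO miR-338-3p stayed low, at 14.3 to 26.7 CPM.

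Within the miR-29 family, which represses collagen mRNAs, the size of the change differed between loci. miR-29c-3p (chr1:195037600-195037621) was at 443, 454, 569 and 433 CPM at UUO-2 and at 81.8, 62.4 and 71.4 CPM at UUO-7. It was 6.61-fold lower (log2 -2.72, SE 0.20, adjusted p = 1.9e-07) and at 60.5 to 89.1 CPM in R-UUO. miR-29a-3p, the most abundant member and of the same seed, was at 1151, 1237, 1215 and 1046 CPM and then at 1061, 1049 and 802 CPM. These groups overlapped, and its log2 fold change of -0.26 was not called (adjusted p = 0.207) and turned to 0.28 with library size only. Of 7 tested loci 3 fell, against 10.3% of all loci, and DESeq2 called 4 lower. The median log2 fold change of the 7 was -1.04, with 1 locus above 0, and it was -0.51 with library size only. The groups did not overlap at 4 loci that were lower, against 17.2% of all loci. The call of miR-29b-3p on chromosome 1 (log2 -1.04, adjusted p = 0.0492) was lost in 13 of the 20 alternatives. Without UUO-7 replicate 2 or 4 the family had 1 call.

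The X-linked cluster of miR-322, miR-503, miR-542, miR-450 and miR-351 fell. It spans 6284 bases (chrX:53048044-53054327), and 9 of 11 tested loci were called lower, against 10.3% of all loci, with a median log2 fold change of -1.84. The summed level of all 14 loci of the list, tested or not, was 10432, 9038, 6818 and 8659 CPM at UUO-2. At UUO-7 it was 2309, 2628 and 2432 CPM. miR-351-5p was at 6813, 5868, 4359 and 5660 CPM and then at 1568, 1810 and 1738 CPM (log2 -1.73, adjusted p = 0.000149). miR-322-5p was at 2669, 2167, 1516 and 2240 CPM and then at 513, 539 and 445 CPM (log2 -2.11, SE 0.25, 4.30-fold lower, adjusted p = 1.72e-05). At both loci the UUO-7 mice were close to each other and below all UUO-2 mice. The 2 loci without a call, miR-503-5p (log2 -1.64, adjusted p = 0.0991) and miR-351-3p (log2 -2.40, adjusted p = 0.159), were under 5 CPM in both groups. In R-UUO the sum was 5011 to 11558 CPM and in sham 7146 to 14061 CPM, so these ranges overlapped each other and UUO-2, and not UUO-7.

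Seeds were counted over tested miRNAs with a RefSeq mature sequence, without those of chromosome 18. Some family members, such as miR-30b-5p and miR-30d-5p, are therefore missing from the counts. Of 44 seeds shared by at least 2 of the miRNAs counted, 14 held at least 2 calls. Calls in both directions were found for 2 seeds, those of miR-322-5p and miR-351-5p. Among the miRNAs of the miR-15/16 seed, miR-15a-5p fell (307, 343, 458 and 276 CPM to 128, 133.1 and 138 CPM, log2 -1.38, adjusted p = 0.000121). miR-15b-5p, in an intron of Smc4, rose (33.7, 23.1, 27.7 and 34.1 CPM to 62.1, 59.9 and 61.4 CPM, log2 1.05, adjusted p = 0.00321). miR-16-5p, the most abundant of the seed, was not called (chromosome 14, log2 -0.47, 4706 ± 173 to 3407 ± 19.1 CPM), as its fold change was under 1.5. In the miR-125 seed, miR-351-5p fell while miR-125b-5p of chromosome 9 rose, with means of 776 ± 205.7 CPM and 2090 ± 105 CPM (log2 1.43, adjusted p = 0.000154). miR-125a-5p was not called (log2 -0.47, 11481 ± 2035 to 8299 ± 650 CPM).

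The abundant miRNAs of smooth muscle and of the Hox clusters fell, in part depending on the scaling. miR-143-3p, of smooth muscle and pericytes, was at 170791, 216978, 321194 and 168690 CPM at UUO-2 and at 90584, 116565 and 104451 CPM at UUO-7 (log2 -1.08, adjusted p = 0.00206). With library size only the change was -0.54 and not called (adjusted p = 0.0778). miR-145a-5p of the same cluster was at 2309, 1446, 1020 and 2323 CPM and then at 444, 447 and 381 CPM (log2 -2.07, adjusted p = 0.000466). All 4 tested loci of miR-143/miR-145 fell, against 10.3% of all loci, 3 of them also with library size only.

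miR-10b-5p (chr2:74726074-74726096, in an intron of Hoxd3 and Hoxd4) was the most abundant locus at UUO-2, at 328601, 247966, 180193 and 388626 CPM. At UUO-7 it was at 112533, 102277 and 81706 CPM (log2 -1.53, SE 0.23, adjusted p = 0.000122), a call kept with library size only (log2 -0.97, adjusted p = 0.000564). miR-10a-5p fell from 195870 ± 55307 to 104255 ± 21799 CPM (log2 -0.91, adjusted p = 0.00297), and this call was lost with library size only (log2 -0.35, adjusted p = 0.0967). Of 10 tested loci of miR-10/miR-196, 3 fell, against 10.3% of all loci, and the third call, miR-10b-3p, was also lost with library size only (log2 -0.67, adjusted p = 0.0778). In miR-23/miR-27/miR-24, 6 of 10 fell and 1 rose, and without UUO-2 replicate 3 the number that fell was 4. In miR-30, 4 of 13 fell, which became 2 without UUO-7 replicate 4, and 6 without UUO-7 replicate 2 or with DESeq2. With library size only 0 loci of either family were called lower, and the median of miR-30 turned from -0.42 to 0.13. The EC marker loci fell as well. At UUO-2, miR-10b-5p and miR-143-3p stood at 125543 and 13005 CPM in ECs. In PDGFR-β+ cells they stood at 272619 and 204933 CPM on the same scale. The part of the EC markers in the result was not tested.

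The families of miR-17~92 and of miR-34/miR-449 had no calls in the main test, which does not show that they were unchanged. In miR-17~92 and its paralogs 0 of 17 tested loci were called by edgeR's quasi-likelihood test or DESeq2, and 1 had an unadjusted p under 0.05. In miR-34/miR-449 0 of 6 were called by either tool, with 1 at an unadjusted p under 0.05. With library size only 5 of the 17 and 1 of the 6 were called higher. Of 7 tested loci of miR-26 and miR-103/miR-107 1 fell, miR-26b-5p, against 10.3% of all loci, and its call was lost with library size only, with no filter on low counts and without UUO-7 replicate 5. Of 13 loci of the miR-15/miR-16 family 1 rose and 1 fell by edgeR, against 23.5% and 10.3% of all loci, while DESeq2 called 1 higher and 4 lower. The tested loci of the Sfmbt2 intron cluster (2), miR-204/miR-211 (1), miR-210 (2), the muscle miRNAs (1) and miR-675/miR-483/miR-335 (2) gave 0 calls by edgeR or DESeq2 and 0 with an unadjusted p under 0.05. Both miR-210 loci were called higher with library size only.

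**Figure D4:**
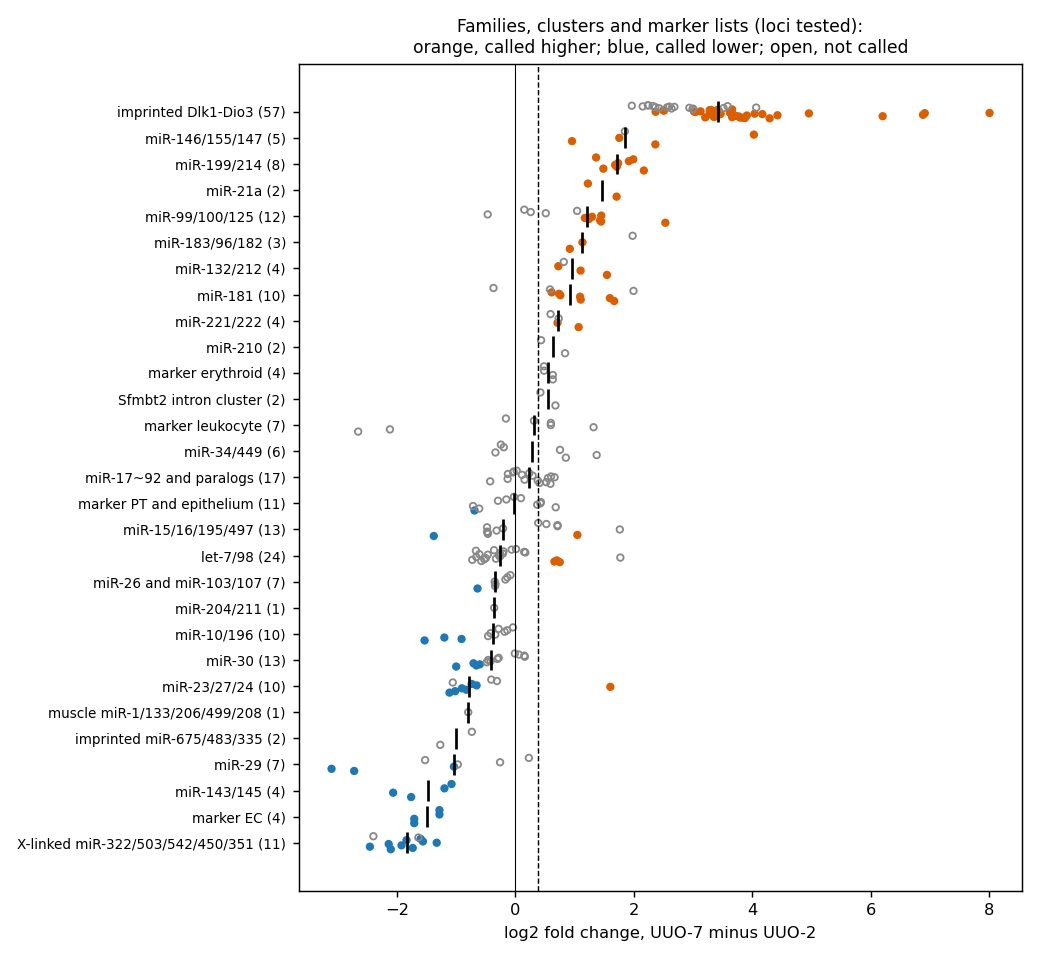
Log2 fold change of UUO-7 over UUO-2 (x axis) of each tested locus by miRNA list (y axis); orange points were called higher, blue lower and open ones not, the bar is the list's median and the dashed line that of all 477 loci (0.38). The Dlk1-Dio3 list is highest (median 3.42, a description only, and 3.66 over the 16 loci that met the filter at UUO-2) and the X-linked cluster lowest (median -1.84).

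Whether the change from UUO-2 to UUO-7 differed between cell types was tested as an interaction, with ECs (537 loci) and Macs (577 loci) of the same mice. The PDGFR-β+ change lay above the EC change at 58 loci (10.8%) and below at 45 (8.38%), 19.2% in all. It lay above the Mac change at 43 loci (7.45%) and below at 47 (8.15%), 15.6% in all. Of 60 Dlk1-Dio3 loci tested against ECs, 32 were above, with median changes of 3.25 in PDGFR-β+ cells and -0.36 in ECs. The count was 16 with the mouse as a block and 15 without UUO-7 replicate 5. Here too, and for Macs below, loci could meet the filter through libraries of other conditions, so count and medians are a description only. miR-127-3p, at 1093 ± 412 CPM in ECs at UUO-2 and 976 ± 364 CPM at UUO-7, differed by 3.88 (adjusted p = 0.00231).

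Against Macs 0 of 54 Dlk1-Dio3 loci differed in edgeR or DESeq2, with 1 at an unadjusted p under 0.05, and the median changes were 3.35 and 2.61. The Mac level at UUO-7 rested on 1 library. miR-127-3p was at 21.3, 20.6, 10.9 and 8.15 CPM in the UUO-2 Macs and at 27.3, 718, 32.1 and 77.99 CPM in UUO-7 replicates 2, 3, 4 and 5, and replicate 3 has no PDGFR-β+ library here. Without that mouse, an alternative chosen after seeing the data, again 0 of 54 differed, but the median log2 difference moved from 0.83 to 2.45 and 4 loci were above at an unadjusted p under 0.05. With the mouse as a block 8 were, and the median difference was 2.38. The PDGFR-β+ marker miR-199a-3p of chromosome 1 stood in Macs at 2.74% of the PDGFR-β+ level at UUO-2 and 2.46% at UUO-7, and its part in the result was not tested.

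For the X-linked cluster, 9 of 12 loci lay below the EC change, against 8.38% of all loci, and 7 of 11 below the Mac change, against 8.15%. The latter count was 4 to 6 when 1 library was left out, lowest without UUO-7 replicate 5, and 2 with library size only. miR-322-5p was at 1916 ± 314 and then 2418 ± 333 CPM in ECs, and its change differed by -2.61 (adjusted p = 3.12e-06). miR-338-3p differed by -3.18 from ECs (adjusted p = 5.68e-08) and by -2.39 from Macs (adjusted p = 4.44e-05). miR-29c-3p differed by -2.25 from ECs (adjusted p = 2.34e-06) but its difference from Macs, -0.85, was not called by edgeR's quasi-likelihood test (adjusted p = 0.0559). It was called with DESeq2 (adjusted p = 0.0107) and when only the UUO-2 and UUO-7 libraries were fitted (adjusted p = 0.00358), and under the other alternatives its adjusted p was 0.0615 to 0.695. miR-21a-5p rose relative to Macs, where it was at 73822 and then 51742 CPM (difference 2.15, adjusted p = 5.8e-05). Of the 8 miR-199/miR-214 loci, not all of them separate observations, 5 were above the EC change, against 10.8% of all loci. The count was 4 with the mouse as a block and 3 without UUO-7 replicate 4. Above the Mac change there was 1, against 7.45% of all loci. It was 0 with the mouse as a block or without UUO-2 replicate 1, 2 or 3 or UUO-7 replicate 2, 3 or 5.

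**Figure D5:**
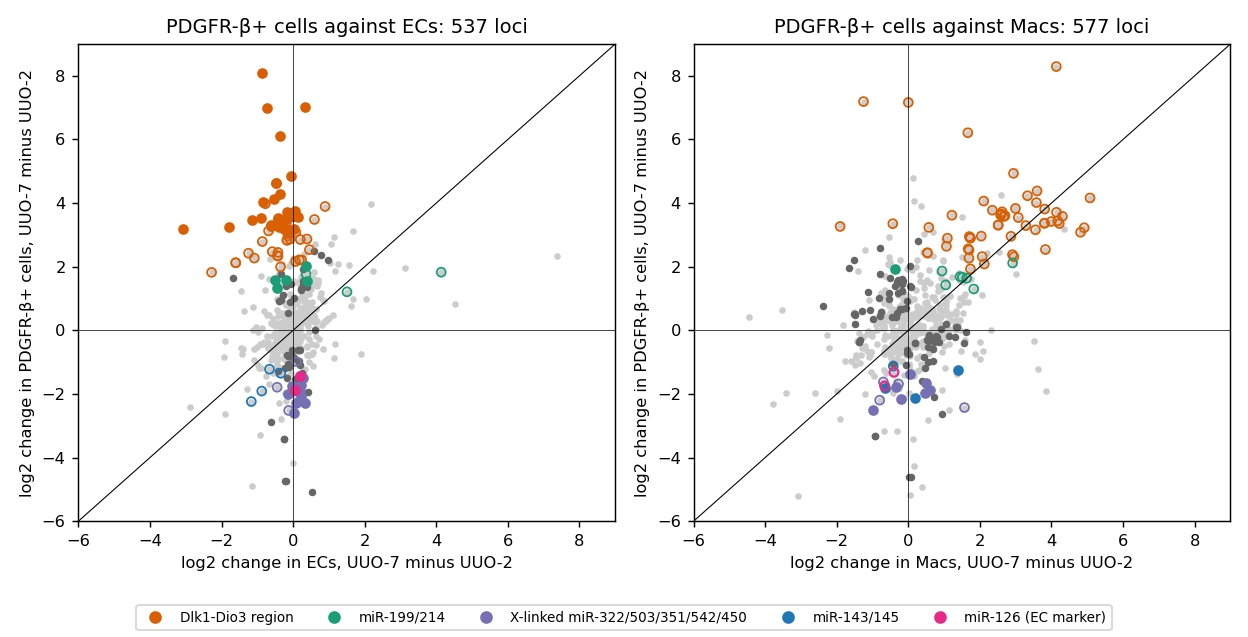
Log2 change from UUO-2 to UUO-7 in PDGFR-β+ cells (y axis) against that in ECs (left, 537 loci) or Macs (right, 577 loci; x axes); dark points have a called difference and the diagonal marks equal change. Dlk1-Dio3 loci lie far above the diagonal against ECs and nearer to it against Macs.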

How the data were processed

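The authors deposited raw read counts per mature miRNA locus, made from small RNA reads of cells sorted for PDGFR-β, CD31 or F4/80. Trimming used Trim Galore 0.4.1 and cutadapt 1.1, and the submitters' processing notes name Bowtie, ShortStack, FastQC, GRCm38 and miRBase. The handling of strand and of reads with several matches is not given in the sources used here. Loci with the same mature sequence, which the counts of families include, may therefore not be separate observations. 1 further value column, never below the sum of the library columns, was not used.

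Counts were filtered (filterByExpr) and TMM-scaled in edgeR 4.0.16 (R 4.3.3), and fitted over all 15 PDGFR-β+ libraries with its quasi-likelihood test. P-values were adjusted by the Benjamini-Hochberg method over all loci tested, and a locus was called at a false discovery rate under 0.05 and a fold change over 1.5. Differences between cell types were interaction terms over 31 libraries each. The values ± are SDs over mice. Same-numbered libraries of different conditions correlated at -0.30 to 0.22 in their deviations and are different mice, so numbers did not pair them, whereas cell types of 1 mouse share an animal. The rule for named loci took the 10 largest calls in each direction with a mean of at least 10 CPM and groups that do not overlap, the 5 most abundant calls in each direction, list members (all of up to 8 tested, otherwise the 4 of smallest p), and the 3 differences between cell types of smallest p in each direction. Other loci named were chosen after their values were seen. The members and lists were chosen with earlier results of these data known. Alternatives were DESeq2 1.42.0, other scaling, filters and designs, and leaving out each UUO-2 and UUO-7 replicate that has a PDGFR-β+ library. Sham and R-UUO libraries were not left out. The removal of the EC marker loci, the leaving out of a UUO-7 mouse with a Mac library only among these 2 cell types, and the check of the filter on the UUO-2 libraries were chosen after seeing the data. The test was checked on simulated data. It called 36 of 94 changes of 1 log2 unit and 67 of 98 of 2 units, 0 of them in the wrong direction. Of 264 unchanged loci it called 4. For the difference from ECs it called 126 of 191 changes of 2 units. Changes were put in as often upwards as downwards, so the simulation does not bear on the choice of scaling.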

Additional observations from a re-analysis of the deposited data

Results flagged for a closer look

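In groups of 4 libraries, 137 loci and 15 sums were examined for a single library far from the others, and 11 were found; chance gives about 1 in 20. At UUO-2, replicate 1 stood apart for miR-126a-3p (787 CPM), the overlapping miR-126b-5p (787 CPM), miR-150-5p (63.2 CPM), miR-194-5p of chromosome 19 (103 CPM) and miR-96-5p (2.87 CPM). Replicate 2 stood apart for miR-181a-5p of chromosome 2 (18687 CPM) and for miR-181b-5p of chromosome 2 (1885 CPM) and chromosome 1 (501 CPM). Replicate 3 stood apart for miR-29c-3p (569 CPM), and replicate 4 was the only one with miR-146b-3p (0.371 CPM). In R-UUO, replicate 1 stood apart for the summed Dlk1-Dio3 loci (8966 CPM).

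The change from UUO-2 to UUO-7 differed between PDGFR-β+ cells and ECs by the interaction test for miR-199a-5p of chromosome 1 (1.79), miR-199b-3p (2.09), miR-199a-3p of chromosome 1 (1.78), miR-338-3p and miR-3065-5p (both -3.18) and miR-29c-3p (-2.25). It differed between PDGFR-β+ cells and Macs for miR-222-3p (1.84), miR-21a-5p (2.15), miR-181a-1-3p (1.78), miR-23b-3p (-1.65), miR-130a-3p (-1.30) and miR-338-3p (-2.39). All these are log2 differences of PDGFR-β+ minus the other cell type.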

How the results depend on the processing

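Of the 161 calls, 127 were kept without UUO-7 replicate 5 and 130 without UUO-2 replicate 3, fewer than with library size only. With library size only, about 1.8e+02 loci were higher and 21 lower, the median moved by 0.55, and 172 and 17 differences from ECs and 122 and 15 from Macs lay above and below 0. DESeq2 gave 105 higher and 68 lower, and 65 differences from Macs above 0. Without a filter 26 differences from Macs lay below 0. Leaving out 1 library gave 88 to 102 higher and 40 to 50 lower loci, 28 to 62 above and 33 to 52 below the EC change, and 30 to 52 above and 28 to 45 below the Mac change. Without UUO-7 replicate 2 or 5, 38 and 28 loci lay above the EC change, and without replicate 4 or 5, 31 and 28 lay below the Mac change. With the replicate block, 101 loci were higher and 46 lower, but the numbers mark different mice. Without the EC marker loci 111 were higher and 45 lower.

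With library size only the sign turned for miR-29a-3p (0.28), miR-19b-3p of chromosome 14 (0.14), miR-34b-3p (0.20), miR-34c-5p (0.37), miR-34b-5p (0.32), miR-10a-3p (0.075), miR-16-5p of chromosomes 14 (0.091) and 3 (0.089), miR-26a-5p of chromosomes 10 and 9 (0.21 each), miR-107-3p (0.19), miR-103-3p of chromosomes 2 (0.39) and 11 (0.47), miR-26b-3p (0.40) and miR-204-5p (0.17). When 1 library was left out, miR-29a-5p ranged from -0.12 (without UUO-7 replicate 2) to 0.57, turning its sign. Of 115 named loci 27 lost their call under at least 1 alternative, 10 of them with library size only and no other. UUO-7 has 3 libraries, and loci of a few CPM rest on few reads.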

Other observations

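Beyond the lists, further loci of imprinted regions were called higher; they were chosen after their values were seen and are not a tested theme. In the list of imprinted miR-675, miR-483 and miR-335, the tested miR-335-5p (log2 -1.27) and miR-335-3p (log2 -0.74) were not called. On chromosome 2, miR-298-5p (34.1, 33.9, 29.3 and 73.8 CPM at UUO-2; 228, 251 and 340 CPM at UUO-7) had a log2 fold change of 2.68 (adjusted p = 0.00116). Its neighbour miR-296-3p had means of 3.76 ± 1.29 CPM and 27.7 ± 15.9 CPM (log2 2.85, adjusted p = 0.000382). miR-1247-5p, in an exon of Dio3os, was at 42.9 ± 14.9 CPM and then at 150 ± 43.7 CPM (log2 1.80, adjusted p = 0.00111). Outside such regions, miR-218-5p, in introns of Slit2 and Slit3, rose (log2 2.06 at its locus on chromosome 5 and 1.83 on chromosome 11). Both loci give the same mature miRNA, so they may not be separate observations.

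Both arms were tested for 141 hairpins, and both were called for 32. In 31 of these the arms moved the same way. The exception was miR-27a, whose arm miR-27a-5p rose (4.14 ± 1.1 to 12.7 ± 0.724 CPM, log2 1.60) while miR-27a-3p fell (1898 ± 471 to 1137 ± 113 CPM, log2 -0.74). With library size only the fall of miR-27a-3p was not called, as for every locus of its family.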
